A study of Mus musculus with 4 samples.

Results

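The genes described are the cytosolic, mitochondrial and endoplasmic heat shock proteins of the Hsp70, Hsp90, Hsp60, Hsp110 and small heat shock families, together with the J proteins that work with Hsp70. They were chosen by symbol alone: every mouse gene of the platform annotation whose symbol starts with Hspa, Hspb, Hsp90a, Hspd1, Hspe1, Hsph1, Dnaja, Dnajb or Dnajc and stands alone on at least 1 probe set. The rule gave 71 genes of 18193, on 172 probe sets, and it used no measured value. Prefixes also take in genes that are not chaperones, such as Hspb11, a subunit of the intraflagellar transport machinery of cilia, and Hspbap1, a protein that binds Hspb1. Hsp90b1 is not a member. Dnajc19 shares its 3 probe sets with a pseudogene symbol and was left out, and Hsp90ab1 and Hsf1 were not analysed here.

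RNA came from Kupffer cells, which are the macrophages that reside in the liver, and from SL4 cells, a mouse colon carcinoma line. There were 4 groups with 1 array each: Dectin-2 KO Kupffer cells in co-culture with SL4 cells (KO co-culture), Dectin-2 KO Kupffer cells and SL4 cells kept apart (KO separate), wild-type Kupffer cells in co-culture with SL4 cells (WT co-culture), and wild-type Kupffer cells and SL4 cells kept apart (WT separate). All Kupffer cells came from 12-week-old female C57BL/6 mice and were sorted as CD45+ CD11b+ F4/80+ cells, SL4 cells have the same strain background, and each culture held 100000 cells of either type for 8 hours. Dectin-2 is a receptor of myeloid cells for fungal cell wall sugars, encoded by Clec4n, and the labels give a genotype for the Kupffer cells only. RNA of the separate cultures was mixed before the array, so every array held RNA of both cell types, and fewer cells of a type cannot be told apart from less RNA per cell. The labels do not say how many mice were used or how the KO was made. The design addresses which genes respond when Kupffer cells and cancer cells share a culture, and which responses depend on Dectin-2.

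Heat shock proteins of the Hsp70 family bind exposed hydrophobic stretches of unfolded proteins and release them in a cycle driven by ATP. J proteins (Dnaja, Dnajb, Dnajc) bring clients to Hsp70 and start ATP hydrolysis, and nucleotide exchange factors such as the Hsp110 proteins reset the cycle. Unfolded protein in the cytosol activates heat shock factors, which bind arrays of the inverted unit GAA in promoters of the inducible members, whereas other members are made constantly or respond to unfolded protein in the endoplasmic reticulum. In macrophages and tumour cells, heat shock proteins are known for buffering heat, oxidants and the protein load of growth.

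Values are microarray signals made with MAS5, a linear brightness per probe set that is already scaled between arrays. A floor was set at 76.1, the median signal when the probe sets of all arrays are pooled, and values at or under it were taken as not above background. A gene is represented by its brightest probe set, and levels of different genes are not compared, since probe sets differ in brightness for reasons other than RNA amount. With 1 array per group no pair of arrays can be tested. Genes were therefore counted where 2 arrays differed at least 1.5-fold, and an additive limma fit over all 4 arrays, with culture and genotype as terms and 1 residual degree of freedom, gave the only p-values. That fit assumes that both genotypes respond alike, and its p-values measure an effect against the difference between the genotypes' responses, pooled across genes of similar signal. The pooled part carried 15.8 degrees of freedom, beside 1 from the gene itself. The SE and p-value of a gene therefore rest mostly on other genes, not on how well its own 2 ratios match.

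Between 10117 and 10187 genes lay above the floor in each array. Clec4n was under the floor in every array, with signals of 8.19 and 8.29 in the KO co-culture and KO separate arrays and 17.6 and 14.2 in the WT co-culture and WT separate arrays, so the deletion could not be checked. Of the markers, 9 of 17 leukocyte and macrophage genes, 5 of 11 Kupffer cell genes, 3 of 11 epithelial genes and 7 of 9 mesenchymal genes were above the floor in at least 1 array. The genes of the sort markers, Ptprc (CD45), Itgam (CD11b) and Adgre1 (F4/80), and the Kupffer cell genes Clec4f, Timd4 and Vsig4 were at or under the floor in all 4 arrays. The summed signal of the leukocyte and macrophage list was 2253 and 2222 in the KO co-culture and KO separate arrays, and 2349 and 1915 in the WT co-culture and WT separate arrays. This sum covers all 17 genes, 8 of them at or under the floor in all arrays. Of that list only C1qb passed the additive limma fit for culture (log2 change 0.96, Benjamini-Hochberg adjusted p = 0.0141). It had 211 against 147 in the KO pair and 264 against 100 in the WT pair, co-culture before separate culture. The summed signal of the mesenchymal list was 28732 and 29512 in the KO pair and 30226 and 33385 in the WT pair.

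Most of the chaperone genes were measured and most moved little, as did most genes measured in all arrays. Of the 71 members, 54 were above the floor in all 4 arrays, Hspa1l and Dnajc28 in 2 or 3 arrays, and Dnaja4 in 1. The remaining 14 were at or under the floor in every array: Hspa1a, Hspa1b, Dnajb3, Dnajb7, Dnajb8, Dnajb13, Dnajc5b, Dnajc5g, Dnajc6, Dnajc22, Hspb2, Hspb3, Hspb7 and Hspb9. Among the 54 measured in all arrays, the highest signal was a median of 1.21-fold above the lowest, and 47 stayed within 1.5-fold. For all 9727 genes measured in all arrays the median was 1.22-fold, and 85.4% stayed within 1.5-fold, against 87% of these members. By its brightest probe set the tightest was Hspb1, which encodes the small heat shock protein Hsp27 (known as Hsp25 in mouse), with a range of 1.07-fold. Its signals were 1511 and 1552 in the KO co-culture and KO separate arrays and 1575 and 1622 in the WT co-culture and WT separate arrays. Its other probe set had 957 and 659 in the KO pair and 567 and 735 in the WT pair, a range of 1.69-fold, with co-culture higher in KO and lower in WT. By the brightest probe set the widest was Dnajc25, a J protein of the endoplasmic reticulum membrane, at 1.83-fold. It had 286 in the KO co-culture array against 215 in the KO separate array, and 203 in the WT co-culture array against 156 in the WT separate array, so that it was higher in co-culture in both genotypes and higher in KO in both cultures. Neither of its effects passed the additive limma fit (Benjamini-Hochberg adjusted p = 0.26 for culture and 0.422 for genotype).

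**Figure D1:**
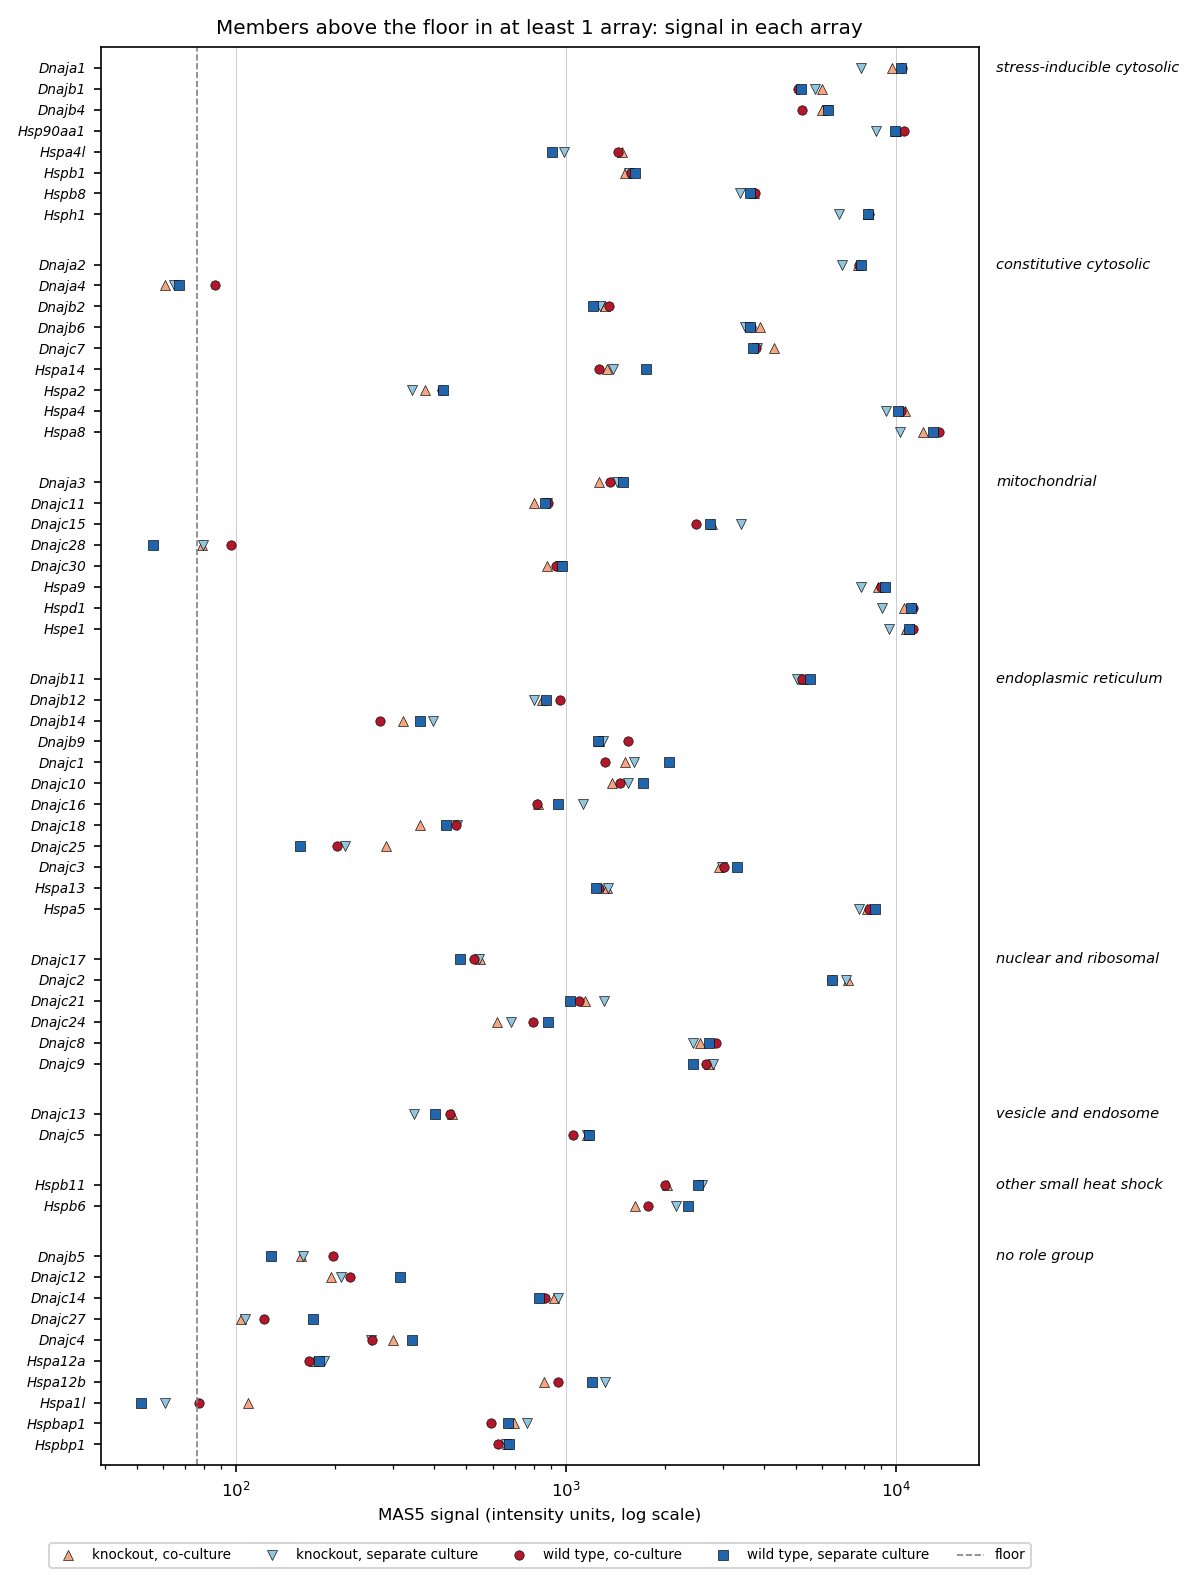
Signal (intensity units, log axis) of the 57 members above the floor in at least 1 array, 1 point per array and no replicates, ordered by role group. The dashed line is the floor of 76.1, and the 4 points of most genes lie almost on top of each other.

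The inducible Hsp70 genes, Hspa1a and Hspa1b, were at background. They encode nearly identical cytosolic proteins that are made in large amounts after heat shock. Hspa1a had signals of 11.5 and 6.86 in the KO co-culture and KO separate arrays, and 10.1 and 9.41 in the WT co-culture and WT separate arrays. The brightest of the 3 Hspa1b probe sets had 19.7 and 26.3 in the KO pair, and 18.8 and 41.7 in the WT pair, and all of these lie under the floor. Probe sets for genes this alike can share RNA, so the pair cannot be assigned separately. The other 8 genes of the stress-inducible cytosolic group were above the floor in all arrays. For co-culture over separate culture their median log2 ratio was 0.17 in KO, with 6 of 8 above 0, and 0.01 in WT, with 5 of 8 above 0. The medians of all genes tested were -0.02 in either genotype. After quantile normalization the group had medians of 0.08 in KO, with 6 of 8 above 0, and 0.0028 in WT, with 4 of 8 above 0.

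Hsph1, an Hsp110 protein that exchanges nucleotide on Hsp70, had 8259 in the KO co-culture array against 6745 in the KO separate array, and 8329 in the WT co-culture array against 8227 in the WT separate array. Dnaja1, a farnesylated cytosolic J protein, had 9728 against 7845 in the KO pair, and 10441 against 10362 in the WT pair, co-culture before separate culture. Hsp90aa1, the inducible cytosolic Hsp90, had 10049 against 8744 in the KO pair and 10570 against 9943 in the WT pair. As deposited, the KO separate array was the lowest of the 4 for these 3 genes. After quantile normalization the log2 ratio of KO over WT in separate culture was -0.18 for Hsph1 and -0.25 for Dnaja1, but 0.02 for Hsp90aa1. As deposited, the other probe sets of Dnaja1 had -0.05 and -0.09 in that comparison, beside -0.40 for its brightest. Dnajb1, the main heat-inducible Hsp40, had 5994 against 5677 in the KO pair and 5049 against 5166 in the WT pair, with both KO arrays above both WT arrays. The small heat shock gene Hspb8, a partner of Bag3 in selective autophagy, stayed between 3373 and 3758. Dnajb4 was lowest in the WT co-culture array, at 5193, and between 5967 and 6253 in the other 3.

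The inverted GAA units bound by heat shock factors can be read in the promoter windows of some of these genes. The sequences are from the RefSeq promoter table of build GRCm38.p6, which holds 250 bases before to 50 bases after a gene's start and has an entry for 58 of the 71 members. The longer pattern searched was 3 inverted units, GAA NN TTC NN GAA with N any base, on either strand (the reverse complement is TTC NN GAA NN TTC). It was found in 4 of the 58 members (6.9%), Hspd1, Hspe1, Dnajb6 and Hsph1, and in 179 of 27025 genes (0.662%). Hspd1 and Hspe1 are divergent neighbours whose windows share 285 bases (chr1:55087898-55088182), so they hold the same match and count as 1 sequence. The shorter pattern, 2 units as GAA NN TTC or TTC NN GAA, overlaps the longer one and was found in 16 members (27.6%) and in 17% of all genes. The CCAAT box, on either strand, was found in 39.7% of members and 41.1% of all genes. Capitals below mark the matched units, and each window is written 5′ to 3′ on the gene's strand: 1 stretch from each of the 3 windows with the longer pattern, and 3 with the shorter one, from an inducible gene at background and from 2 small heat shock genes.
Hspe1 (chr1:55088039-55088096, plus strand): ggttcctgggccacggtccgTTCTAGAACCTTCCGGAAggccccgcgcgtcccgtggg
Dnajb6 (chr5:29735832-29735884, plus strand): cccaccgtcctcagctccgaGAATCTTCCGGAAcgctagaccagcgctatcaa
Hsph1 (chr5:149636282-149636306, minus strand): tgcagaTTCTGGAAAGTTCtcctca
Hspa1a (chr17:34972233-34972280, minus strand): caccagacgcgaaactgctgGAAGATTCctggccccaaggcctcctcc
Hspb1 (chr5:135887782-135887849, plus strand): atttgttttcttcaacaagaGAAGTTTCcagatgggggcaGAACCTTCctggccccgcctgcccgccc
Hspb6 (chr7:30553161-30553208, plus strand): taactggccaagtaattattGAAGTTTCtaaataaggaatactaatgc
The stretch shown begins to match 89 bases before the start in Hspe1, with overlapping matches at 89 and 84 bases, 46 before it in Dnajb6, and at base 16 after it in Hsph1. In Dnajb6 a match was also listed 127 bases before a start, and in Hsph1 one at base 37 after a start. A gene can have several annotated starts, so these may be the same matches counted from another start. The Hspa1a stretch is also that of Hspa1b (chr17:34959315-34959362, minus strand), and 296 of the 300 bases of their windows are identical. A match is a run of letters, not a binding site shown by data. Of the genes with these windows, Hspa1a was at background, Hspb1 had the narrowest range of the members measured in all arrays by its brightest probe set but not by its other one, and Hspb6 fell in co-culture in the additive fit, as described below.

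Few of the chaperone genes differed between co-culture and separate culture, as was true of all genes. In KO, 0 of 56 members had a co-culture signal at least 1.5-fold above that of separate culture (2.5% of all genes tested) and 1 was at least 1.5-fold lower (4.28% of all genes), namely Hspa12b. In WT, 2 of 57 members were higher by that much (3.31% of all genes), namely Hspa4l and Dnajb5, and 1 was at least 1.5-fold lower (3.39% of all genes), namely Dnajc1. Among 70 other probe sets of 36 members, 4 were higher and 0 lower by that much in KO, and 2 were higher and 1 lower in WT. The shares for such probe sets over all genes were not computed. One of these probe sets, of Dnajc11, was 2.11-fold higher in KO, with 421 against 200, beside 226 against 234 in WT. The brightest probe set of Dnajc11 had a log2 ratio of -0.13 in KO. By the brightest probe set, no member reached a 2-fold difference in either genotype, against 0.67% of genes higher and 0.574% lower in KO, and 0.701% and 0.538% in WT. The median log2 ratio of the members was -0.0044 in KO and 0.0046 in WT, beside -0.02 for all genes in each. In the additive limma fit, 5 of 56 members passed a Benjamini-Hochberg adjusted p of 0.05 for culture, 1 higher (3% of all genes) and 4 lower (4.84% of all genes). That share of members is close to the 7.84% of all genes that passed in either direction. With limma's variance moderated without its intensity trend, the count of members passing was 0, with 7 at an unadjusted p under 0.05, and 56 genes passed in all. In the fit with the trend, 9 members had an unadjusted p under 0.05 (21.3% of all genes).

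Hspa4l rose in co-culture. It encodes Apg-1, an Hsp110 protein that works as a nucleotide exchange factor of Hsp70 and is induced by osmotic stress. Its signal was 1478 in the KO co-culture array against 989 in the KO separate array, and 1436 in the WT co-culture array against 907 in the WT separate array, so both co-culture arrays lay above both separate arrays. The ratios were 1.49-fold in KO and 1.58-fold in WT. The additive limma fit gave a log2 change of 0.62 ± 0.08 (SE, 4 arrays; Benjamini-Hochberg adjusted p = 0.000118). All 5 of its probe sets were higher in co-culture in both genotypes, with log2 ratios between 0.31 and 0.69 in KO and between 0.05 and 0.68 in WT. With the median over its probe sets in place of the brightest one, the limma adjusted p was 0.451, and without the intensity trend it was 0.0963.

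**Figure D2:**
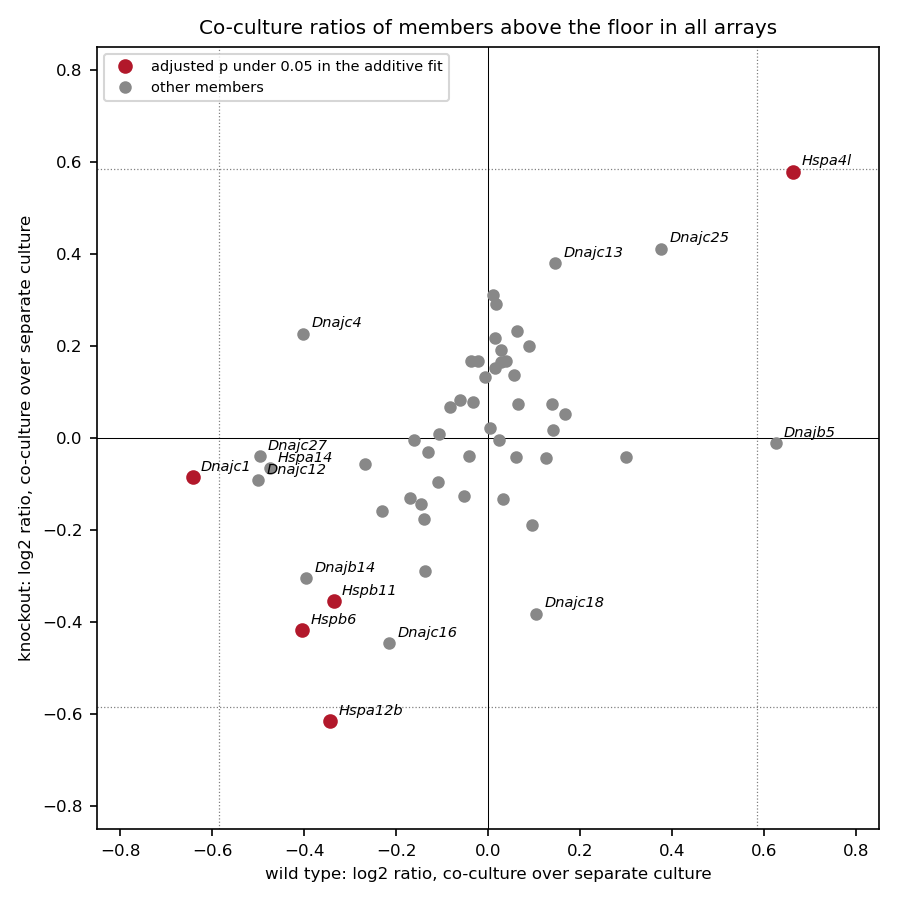
Log2 ratio of co-culture over separate culture in KO (vertical) and WT (horizontal) for the 54 members above the floor in all 4 arrays, 1 point per gene and 1 array per group. Dotted lines mark 1.5-fold, and red points passed the additive limma fit. Hspa4l lies farthest to the upper right, with 0.58 in KO and 0.66 in WT, and most members lie near 0 on both axes.

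Both measured genes of the remaining group with the prefix Hspb fell, but only Hspb6 of these encodes a small heat shock protein. The small heat shock genes Hspb1 and Hspb8 did not pass the fit for culture. Cryab, a small heat shock gene without the prefix, was not lower in co-culture. It had 1890 against 1794 in the KO pair and 1661 against 1532 in the WT pair, co-culture before separate culture. Hspb6, the Hsp20 protein best known from smooth and heart muscle, had 1617 in the KO co-culture array against 2158 in the KO separate array, and 1772 in the WT co-culture array against 2346 in the WT separate array. Hspb11, the cilium transport subunit, had 2026 against 2592 in the KO pair and 1996 against 2519 in the WT pair. For both genes the co-culture arrays lay below the separate arrays, with log2 ratios of -0.42 in KO and -0.40 in WT for Hspb6, and of -0.36 in KO and -0.34 in WT for Hspb11. The additive limma fit gave log2 changes of -0.41 ± 0.07 for Hspb6 (adjusted p = 0.000975) and -0.35 ± 0.07 for Hspb11 (adjusted p = 0.00335; SE, 4 arrays, Benjamini-Hochberg). Hspb6 has 1 probe set, and the second probe set of Hspb11 was under the floor, which took its limma adjusted p to 0.457 where the median over probe sets was used. The other 4 genes of that group, Hspb2, Hspb3, Hspb7 and Hspb9, were at background.

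Hspa12b also fell. It encodes a distant relative of Hsp70 known from endothelial cells. Its signal was 860.5 in the KO co-culture array against 1318 in the KO separate array, and 947 in the WT co-culture array against 1202 in the WT separate array. It was 1.53-fold lower in KO and 1.27-fold lower in WT, with a log2 change of -0.48 ± 0.09 in the additive limma fit (Benjamini-Hochberg adjusted p = 0.0034). Its relative Hspa12a, near the floor at 166 to 185, had log2 ratios of -0.09 in KO and -0.11 in WT and did not pass. Some markers of mesenchymal cells were lower beside these genes. The median log2 ratio of that list was -0.19 in KO, with 4 of 7 genes below 0, and -0.32 in WT, with 5 of 6 below 0, while Fn1, which encodes fibronectin, was at 0.11 in KO and 0.10 in WT. Acta2 and Col3a1, which encode smooth muscle actin and a fibrillar collagen, were the 2 of the list that passed the same limma fit, at log2 changes of -0.66 and -0.52 (Benjamini-Hochberg adjusted p = 0.0278 and 7.5e-05). Their part in the change of Hspb6, Hspb11 and Hspa12b was not tested.

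Dnajc1, a J protein of the endoplasmic reticulum membrane that faces the ribosome, was lower in co-culture by its brightest probe set alone. That probe set had 1514 in the KO co-culture array against 1605 in the KO separate array, and 1318 in the WT co-culture array against 2057 in the WT separate array, so the difference rests mainly on the WT separate array. The additive limma fit gave a log2 change of -0.36 ± 0.10 (SE, 4 arrays; Benjamini-Hochberg adjusted p = 0.0322). Another probe set of similar brightness had 1132 against 1173 in the KO pair and 1125 against 1028 in the WT pair. After quantile normalization it did not pass (limma adjusted p = 0.153). With the median over probe sets the change had the opposite sign, 0.050 (limma adjusted p = 0.899).

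**Figure D3:**
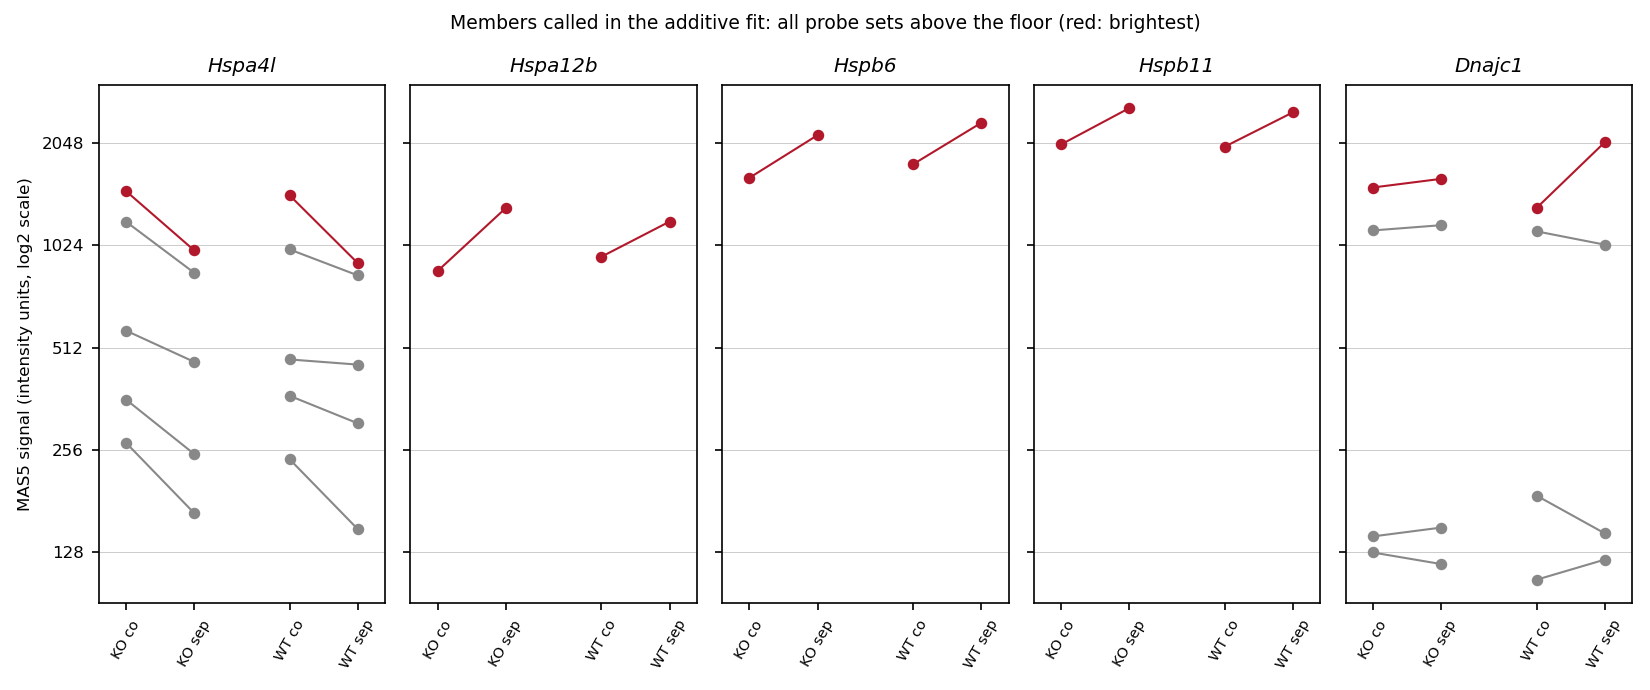
Signal (intensity units, log2 axis, the same in every panel) of the 5 members that passed the additive limma fit for culture, with each line joining the co-culture (co) and separate (sep) array of a genotype. Red is the brightest probe set and grey the others above the floor in all arrays. All 5 lines of Hspa4l slope the same way in both genotypes, whereas those of Dnajc1 do not.

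Dnajb5, a cytosolic J protein, was 1.5-fold higher in co-culture in WT only, and the difference between the genotypes was not tested. It had 158 in the KO co-culture array against 159 in the KO separate array, and 197 in the WT co-culture array against 128 in the WT separate array. Its co-culture ratio was thus 1.01-fold lower in KO and 1.54-fold higher in WT. The 2 other probe sets did not show this: one had log2 ratios of 0.12 in KO and 0.04 in WT, and the other, near the floor, of -0.07 and -0.34. Dnajb5 did not pass the additive limma fit (Benjamini-Hochberg adjusted p = 0.469).

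Of the constitutive cytosolic chaperones, 0 of the 8 that were fitted passed for culture, a count that does not set them apart from all genes, of which 7.84% passed. Hspa8, the constitutive Hsc70, had 12145 in the KO co-culture array against 10333 in the KO separate array, and 13535 in the WT co-culture array against 12951 in the WT separate array. Hspa4, another Hsp110 exchange factor, had 10694 against 9362 in the KO pair and 10386 against 10187 in the WT pair. As deposited, the brightest probe sets of both genes were lowest in the KO separate array, and after quantile normalization that of Hspa4 was higher in KO than in WT in separate culture, by 0.07 on the log2 scale. Another probe set of Hspa4 had 5172 and 4866 in the KO co-culture and KO separate arrays, against 2917 and 3088 in the WT co-culture and WT separate arrays. It was 1.77-fold higher in KO in co-culture and 1.58-fold higher in KO in separate culture, which the brightest probe set and another of 1727 to 2096 did not show. Among the J proteins, Dnaja2 ranged from 6858 to 7870, Dnajb6, which holds back aggregation, from 3505 to 3893, and Dnajc7, which also binds Hsp90, from 3705 to 4270. Hspa14, an atypical Hsp70 of the ribosome, had 1330 against 1392 in the KO pair and 1264 against 1756 in the WT pair, and its WT separate array stood above the other 3 (limma adjusted p for culture = 0.0828). Its other probe sets had log2 ratios for culture of 0.12 and 0.10 in KO, and of -0.18 and -0.13 in WT.

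Of the mitochondrial members, 0 of 8 passed for culture, again beside 7.84% of all genes. Hspd1 and Hspe1 encode Hsp60 and its lid Hsp10, which fold imported proteins in the matrix, and they share the promoter shown above. Hspd1 had 10607 against 9124 in the KO pair and 11254 against 11139 in the WT pair. Hspe1 had 10721 against 9547 in the KO pair and 11290 against 10992 in the WT pair. As deposited, their log2 ratios for culture were 0.22 and 0.17 in KO and 0.01 and 0.04 in WT. Other bright members had similar values, such as Hspa4, with 0.19 in KO and 0.03 in WT. After quantile normalization the ratios for culture in KO were 0.07 for Hspd1 and 0.0062 for Hspe1. The other probe set of Hspe1 had 0.16 for culture in KO and 0.13 in WT as deposited. A part of the shared promoter in these ratios was not tested. Hspa9, the mitochondrial Hsp70 that pulls proteins into the matrix, had 8814 against 7851 in the KO pair and 9043 against 9286 in the WT pair. Dnajc15, a J protein of the inner membrane import channel, had 2781 against 3400 in the KO pair and 2490 against 2740 in the WT pair. It was lower in co-culture in both genotypes without passing the fit (log2 change -0.21 ± 0.07, limma Benjamini-Hochberg adjusted p = 0.0689).

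In the endoplasmic reticulum, 1 of 12 members passed for culture, Dnajc1, beside 7.84% of all genes. Hspa5, the lumenal Hsp70 known as BiP and a standard readout of unfolded protein there, stayed between 7743 and 8635 in the 4 arrays. Of its lumenal J proteins, Dnajb11 lay between 5011 and 5512, and Dnajc3, which also restrains the kinase Perk, between 2921 and 3297. Dnajb9, a target of the transcription factor Xbp1 that represses Ire1, had 1257 against 1293 in the KO pair and 1540 against 1252 in the WT pair, with the WT co-culture array above the other 3. Dnajc10, a reductase that helps degrade misfolded proteins, had 1384 against 1544 in the KO pair and 1458 against 1711 in the WT pair. Dnajc16 had 827 against 1126 in the KO pair and 817 against 949 in the WT pair, lower in co-culture in both, and missed the threshold (log2 change -0.33 ± 0.10, limma Benjamini-Hochberg adjusted p = 0.0521). Its other probe set had log2 ratios of -0.43 in KO and 0.08 in WT.

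J proteins of the nucleus, the ribosome and vesicles gave 0 of 8 that passed for culture, beside the same 7.84%. Dnajc2, a ribosome-bound J protein, had 7174 and 7064 in the KO co-culture and KO separate arrays, against 6435 and 6415 in the WT co-culture and WT separate arrays. Dnajc9, a co-chaperone of histones, ranged from 2438 to 2799, and Dnajc8, a spliceosome component, from 2429 to 2853. Dnajc21, needed for the maturation of the large ribosomal subunit, had 1146 against 1307 in the KO pair and 1098 against 1027 in the WT pair. Dnajc24, an enzyme cofactor in diphthamide synthesis, had 619 and 683 in the KO pair against 797 and 881 in the WT pair. Dnajc5, the cysteine string protein of secretory vesicles, ranged from 1053 to 1178. Dnajc13, which works on endosomes, had 452 against 347 in the KO pair and 445 against 402 in the WT pair. Its other probe set had log2 ratios for culture of -0.01 in KO and 0.45 in WT. Dnajc6, the uncoating factor auxilin, was at background.

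Few chaperone genes differed between KO and WT, as was true of all genes, and none passed the fit. In co-culture, 0 of 57 members were at least 1.5-fold higher in KO than in WT (1.51% of all genes tested) and 0 were lower (1.48% of all genes). In separate culture, 0 of 55 were at least 1.5-fold higher in KO (1.74% of all genes) and 2 were lower (1.05% of all genes). These counts rest on the brightest probe set of each gene. Among the 70 other probe sets, all above the floor in every array, 4 were at least 1.5-fold higher in KO in co-culture and 0 lower, and 3 were higher and 1 lower in separate culture. These include that of Hspa4 in both cultures, and the second probe set of Hspb1 and the dimmest of Hspb8 in co-culture, at 1.69-fold and 1.86-fold. A probe set of Dnajc11 was also 1.86-fold higher in KO in co-culture. Shares over the other probe sets of all genes were not computed, so these counts cannot be set beside the shares above. The 2 members called lower were Dnajc27, which joins a J domain to a Rab-like GTPase, and Dnajc12, which binds aromatic amino acid hydroxylases. By the brightest probe set, no member reached a 2-fold difference, against 0.144% of genes higher and 0.0962% lower in co-culture, and 0.0869% and 0.116% in separate culture. The median log2 ratio of the members was -0.01 in co-culture and -0.04 in separate culture, beside -0.0021 and 0.0045 for all genes. In the additive limma fit, 0 of 56 members passed for genotype at a Benjamini-Hochberg adjusted p of 0.05 (0.068% of all genes higher and 0.117% lower), and 9 had an unadjusted p under 0.05 (9.99% of all genes). The lowest limma adjusted p among members was 0.219, for Dnajc15. In either direction 0.185% of all genes passed, and a p over the threshold does not show that the genotypes are alike.

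Dnajc27 had 103 and 106 in the KO co-culture and KO separate arrays, against 122 and 172 in the WT co-culture and WT separate arrays. Dnajc12 had 195 and 208 in the KO pair, against 222 and 313 in the WT pair. In both genes the WT separate array stood above the other 3, and both signals are within a few times the floor. The second probe set of Dnajc27 differed at least 1.02-fold in separate culture, with its KO array under the floor, and Dnajc12 has no other probe set. Some members, such as Dnajc15 and Hspd1, had both KO arrays on one side of both WT arrays, in either direction. The share of all genes that did so was not counted, so this pattern does not set the members apart. Of 4 further examples, Dnajb1, Dnajc2 and Dnajc25 were higher in KO, with fitted log2 changes of 0.19, 0.15 and 0.48. The other, Dnajc24, was lower, with -0.37. Other probe sets do not all follow: one of Dnajb1 had log2 ratios of -0.02 in co-culture and -0.08 in separate culture, one of Dnajc2 had -0.14 in co-culture, and one of Dnajc24 had 0.03 in co-culture. None of the 4 genes passed the limma fit, with Benjamini-Hochberg adjusted p of 0.375, 0.549, 0.422 and 0.234 in that order.

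Quantile normalization, which gives every array the same distribution of signals, moved the ratios of the brightest members. The 14 members with a mean signal of at least 4096 were Dnaja1, Dnaja2, Dnajb1, Dnajb4, Dnajb11, Dnajc2, Hsp90aa1, Hspa4, Hspa5, Hspa8, Hspa9, Hspd1, Hspe1 and Hsph1. As deposited, 13 of the 14 were higher in co-culture than in separate culture in KO, with a median log2 ratio of 0.17, and 8 of 14 were higher in WT, with a median of 0.0078. In separate culture, 12 of the 14 were lower in KO than in WT, with a median of -0.19. Over all 1015 genes of that brightness the medians were 0.09 for culture in KO, with 79.8% of genes above 0, and -0.1 for genotype in separate culture, with 81.2% below 0. The KO separate array enters both comparisons, and its 99th percentile of signal was 7637, beside 8283 to 8433 in the other 3 arrays. After quantile normalization the medians of the 14 members were 0.05 for culture in KO, with 11 of 14 above 0, and -0.04 for genotype in separate culture, with 8 of 14 below 0. The largest remaining ratios for culture in KO were those of Hsph1, at 0.21, and Dnaja1, at 0.20, beside 0.29 and 0.31 as deposited. The other probe sets of Dnaja1 had 0.04 each as deposited. By the brightest probe set, no member of this set differed 1.5-fold in any comparison with either scaling. Other probe sets of Hspa4 did so as deposited, one by 1.77-fold for genotype in co-culture and another by 1.67-fold for culture in KO. None of the 14 members passed the limma fit as deposited, and after quantile normalization Dnajb4 passed for culture (log2 change -0.20, limma Benjamini-Hochberg adjusted p = 0.0475).

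**Figure D4:**
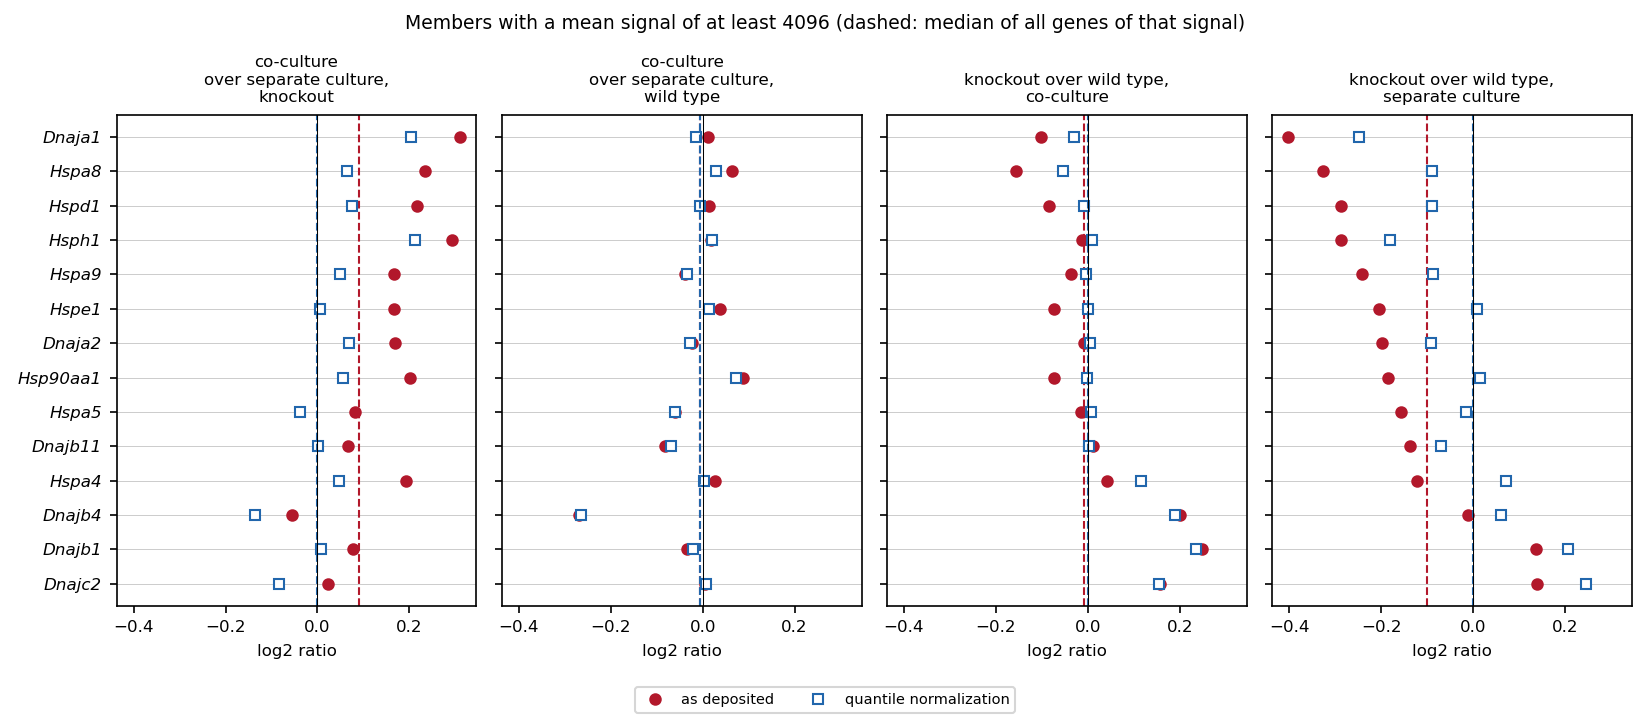
Log2 ratios of the 14 members with a mean signal of at least 4096 in the 4 comparisons, as deposited (red) and after quantile normalization (blue), 1 array per group. Dashed lines, in the colour of the points, are medians of all genes of that brightness. In the comparisons that use the KO separate array, 13 of 14 and 12 of 14 red points lie to one side of 0, and most blue points are nearer to it.

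Genes that work with the chaperones were taken from 6 lists of heat shock factors, co-chaperones and other folding machinery. Of their 60 genes, 55 were on the annotated array and 53 were above the floor in at least 1 array. Of these 53, 0 rose (3% of all genes) and 1 fell (4.84% of all genes) in the additive limma fit for culture, and 0 passed for genotype (0.185% of all genes). The heat shock factor Hsf2 had 254 against 220 in the KO pair and 250 against 234 in the WT pair, co-culture before separate culture. Bag3, a co-chaperone of Hsp70 that is induced together with it, had 1058 against 963 in the KO pair and 846 against 849 in the WT pair. All 12 Hsp70 co-chaperones and all 11 measured Hsp90 co-chaperones failed the culture test. Among the Hsp90 co-chaperones, Fkbp5, an immunophilin induced by glucocorticoids, came closest (log2 change -0.25 ± 0.08, limma Benjamini-Hochberg adjusted p = 0.0791), with 1113 against 1327 in the KO pair and 1083 against 1282 in the WT pair.

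The gene that fell was Sdf2l1, which binds lumenal J proteins of the endoplasmic reticulum and is induced by unfolded protein there. Its signal was 874 in the KO co-culture array against 1369 in the KO separate array, and 944 in the WT co-culture array against 1381 in the WT separate array. The limma log2 change was -0.60 ± 0.09 (SE, 4 arrays; Benjamini-Hochberg adjusted p = 0.000225). The other 10 endoplasmic reticulum chaperones of the list did not pass, and Hsp90b1, the lumenal Hsp90, had 8832 against 8674 in the KO pair and 9411 against 9371 in the WT pair. The 14 subunits of the cytosolic chaperonin and of prefoldin, which help actin and tubulin to fold, gave 0 calls. They were all higher in co-culture than in separate culture in KO, with a median log2 ratio of 0.15, and 13 of 14 were lower in KO than in WT in separate culture, with a median of -0.11. Both counts use the KO separate array. After quantile normalization 10 of 14 were higher in co-culture in KO, with a median of 0.02, and 10 of 14 were lower in KO in separate culture, with a median of -0.04.

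Probe sets of one gene give a rough measure of error within these arrays. For 36 members a second probe set could be set beside the brightest one. It moved in the same direction in 25 of 36 members for culture in KO, 24 for culture in WT, 22 for genotype in co-culture and 23 for genotype in separate culture. The disagreement of the probe sets corresponds to an SD of 0.16 to 0.21 on the log2 scale for a single ratio. This SD does not include the spread between cultures.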

How the data were processed

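The authors deposited 1 value per probe set and array, a MAS5 intensity on a linear scale made with Affymetrix Expression Console 1.4, per the submitters' processing notes. The cDNA came from 20 ng of RNA, amplified as a whole transcriptome, per the labels' protocols. The number of arrays, 1 per group, limits the precision.

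Of 45037 probe sets, the platform annotation gave 1 symbol to 34945 and several to 932, and 9160 were not listed and are unnamed here. All 172 member probe sets matched a RefSeq gene table (GRCm38.p6), which changed 0 symbols. Signals were raised to the floor of 76.1 and log2-transformed with no further scaling. Each gene was represented by the probe set whose mean log2 signal was highest, and a comparison covered genes that passed the floor in 1 or both of its arrays. A ratio against an array at or under the floor is a lower bound.

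The additive model (culture plus genotype) was fitted with limma 3.58.1 in R 4.3.3, with an intensity trend, to 10287 genes above the floor in at least 2 arrays, with Benjamini-Hochberg adjustment over all of them. The procedure was also run on simulated data in which both genotypes responded alike and no array was shifted as a whole. That run therefore cannot test the assumption of equal responses. Alternatives were quantile normalization, a common median, no floor (log2 of signal plus 1), a floor 2 times higher, the median over probe sets, leaving out probe sets with the suffixes _x_at and _s_at, no trend, and a wider gene set.

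Members were set by symbol, and every member may be named. Members at least 1.5-fold different or called, and the brightest of each role group, have their values given. Members and lists were chosen with earlier results of these data known. The labels name no replicate cultures. Protein sequences were not used here.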

Additional observations from a re-analysis of the deposited data

Results flagged for a closer look

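Of the 54 members above the floor in all arrays, 16 had co-culture ratios of opposite sign in KO and WT, and in 2 of these the ratios also lay at least 1.5-fold apart. The shares over all genes were not computed, so these counts do not set the members apart. The difference was not tested, since each group has 1 array. The co-culture log2 ratio of Dnajb5 was -0.01 in KO and 0.63 in WT, a difference of -0.64 (KO minus WT). The other probe sets of Dnajb5 do not show it, but they lie near the floor and can say little about it. That of Dnajc4 was 0.23 in KO and -0.40 in WT, a difference of 0.63. Dnajc4 had 300 in the KO co-culture array against 256 in the KO separate array, and 259 in the WT co-culture array against 342 in the WT separate array, and it has 1 probe set.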

How the results depend on the processing

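No paired analysis was possible because the labels give no replicate numbers and each group has 1 array, and leaving out an array leaves the additive fit no residual degree of freedom. The number of members higher in WT co-culture, 2 in the report, was 1 after quantile normalization, 0 with a common median, 1 with the higher floor, 0 with the median over probe sets and 1 without the _x_at and _s_at probe sets. The number lower, 1 in the report, was 4 with a common median, and taking the median over probe sets gave 0. A common median moved the median of all genes in that comparison to -0.13 and that of the members to -0.11. In KO, 1 member was higher in co-culture after quantile normalization and 1 without a floor, against 0 in the report, and 0 were lower after quantile normalization, against 1. The number of members lower in KO in separate culture was 1 with the higher floor and 1 with the median over probe sets, against 2. Members passing the additive limma fit for culture numbered 9 with a common median, 2 with the median over probe sets and 0 without the intensity trend, against 5, and between 4 and 6 under the other alternatives. Over all genes, 807 passed for culture, against 1380 with a common median, 302 with the median over probe sets and 56 without the trend. For genotype 19 genes passed, against 2 after quantile normalization, 84 with a common median, 9 without a floor, 40 with the higher floor, 0 with the median over probe sets, 0 without the trend and 3 over the wider gene set. The median over probe sets reversed Dnajc1 in the fit (log2 change 0.050) and in WT co-culture (log2 ratio 0.086), and Dnajb5 in WT co-culture (-0.34). Other probe sets of both genes do not follow the brightest, and those of Dnajb5 lie near the floor. The cause of the other changes was not tested.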
